A study of Mus musculus with 8 samples.

Results

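Connexins are the membrane proteins that build gap junctions, the channels through which neighbouring cells exchange ions and small molecules. Oligodendrocytes and astrocytes make different connexins, and the channels between them join glia into a network known for clearing potassium and sharing metabolites around myelinated axons. The genes described here are 4 in number: Gjb1 and Gjc3, which are known as oligodendrocyte connexin genes, and Gja1 and Gjb6, which are known as astrocyte connexin genes. They were chosen by name, and all 4 were among the 11315 genes of the RNA tables. In the hydroxymethylation tables they held 67 of 1497075 sites.

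RNA and DNA hydroxymethylation were measured in adult oligodendrocyte progenitor cells (aOPC) and adult oligodendrocytes (aOL) sorted from the brains of C57BL/6 mice at postnatal day 60. aOPC were sorted for EGFP expressed from the Pdgfra locus and aOL for EGFP under the Plp promoter, so each population came from its own reporter line and each gate admitted any cell that carried enough reporter. No agent was given, and no other allele is named for these animals. Each population had 2 RNA-seq libraries and 2 libraries of reduced representation hydroxymethylation profiling (RRHP), numbered replicates 2 and 3. In RRHP, a hydroxymethylated CCGG is shielded from the enzyme MspI and yields reads, so a count is a measure of 5-hydroxymethylcytosine at that CCGG. In RNA, the aOL libraries are titled pre-myelinating but described as myelinating in the extraction text, so the labels do not settle their stage. For the aOL samples of RRHP, the tissue field gives the Pdgfra reporter while the title gives the Plp one, and the title was followed. Nothing in the labels says how many animals went into a library, so p-values measure only the spread between these libraries.

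The marker genes of the labelled populations were read first. The deposited log2 levels of Pdgfra, the receptor gene behind the aOPC sort, were 7.54 and 5.47 in aOPC against 4.98 and 1.63 in aOL. Pdgfra was low among all genes even in aOPC, at percentiles 14.5 and 4.22. Of 10 progenitor markers tested 6 lay below 0 and 4 above, with a median of -0.46, 4 of them not overlapping and lower in aOL (29.9% of all genes tested) and 1, Matn4, not overlapping and higher (31.9%). The oligodendrocyte marker Cnp, a myelin protein gene, was high in every library, at 19.40 and 19.28 in aOPC against 19.6 in either aOL library. Over 10 oligodendrocyte markers the median difference between aOL and aOPC was 0.00 on the log2 scale, with 2 not overlapping and higher in aOL and 4 not overlapping and lower, against the same shares of all genes. Replicates differed more in aOPC than in aOL, with an SD of the replicate difference of 0.905 log2 units across genes in aOPC and 0.401 in aOL. Animals of either sex were used, and Y-linked genes stood apart in aOPC replicate 2, where Ddx3y was at 12.43 against 0.32 to 1.63 in the other libraries. RRHP libraries held between 7113237 and 27057859 counts, of which CpG islands took 5.74% in aOPC replicate 2 and 2.38% to 3.32% in the others. A fit without each library is therefore given for the 4 genes wherever it changed a call or a direction of their RNA, gene bodies or promoters. Such fits were looked up for only some of the other genes. For single sites only the calls were looked up.

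Gjb1 lies on the plus strand at chrX:101376376-101385629 (GRCm38, RefSeq) and has several annotated starts, all followed by the same coding exon. The most downstream start, at chrX:101383736 in the GENCODE annotation, is known as the promoter used in nervous tissue, whereas an upstream one is known from liver. The 250 bases before that downstream start in RefSeq are printed because Gjb1 carried most of the RRHP counts of these genes and several of its sites lie here, with each CCGG that lies whole in this window in capitals. The window ends inside the CCGG of the downstream start, which is printed whole among the tested sites further on.

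Gjb1 downstream promoter, chrX:101383482-101383731, plus strand: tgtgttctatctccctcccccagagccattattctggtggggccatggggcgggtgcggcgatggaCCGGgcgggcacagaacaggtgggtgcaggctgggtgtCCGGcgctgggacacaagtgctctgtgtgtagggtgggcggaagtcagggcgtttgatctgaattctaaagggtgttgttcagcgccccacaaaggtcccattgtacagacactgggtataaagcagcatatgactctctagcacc

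Gjc3 lies on the minus strand at chr5:137950992-137963098 and is shown for the opposite reason, because its whole span holds only 3 CCGG (0.248 per kb) and RRHP could say little about it. The 250 bases upstream of that span hold a further CCGG, next to the start.

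Gjc3 promoter, chr5:137963099-137963348, minus strand: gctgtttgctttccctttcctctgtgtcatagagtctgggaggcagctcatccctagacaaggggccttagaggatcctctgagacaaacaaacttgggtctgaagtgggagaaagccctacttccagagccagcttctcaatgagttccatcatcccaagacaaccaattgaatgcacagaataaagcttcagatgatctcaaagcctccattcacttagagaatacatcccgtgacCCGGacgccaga

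Gja1 lies at chr10:56377300-56390419 (plus strand) and Gjb6 at chr14:57123301-57133611 (minus strand). The letters CCGG, which read the same on both strands, occurred in 2 of 7 RefSeq promoter windows of the 4 genes (1 of them Gjc3's and 1 of 4 Gjb1 windows) and in 47.1% of all 32851 windows of that length. Each CCGG that gave a tested site is given here on the plus strand of GRCm38 with its neighbours, the CCGG in capitals, since these short stretches are what the RRHP results rest on.

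Gjb1 intron, chrX:101377940-101377969: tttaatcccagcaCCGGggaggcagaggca
Gjb1 intron, chrX:101378844-101378873: agtagcaataatcCCGGtgatgataagaga
Gjb1 intron, chrX:101378878-101378907: gtatcagccgaagCCGGatgaagaggccct
Gjb1 before the downstream start, chrX:101383573-101383602: gcaggctgggtgtCCGGcgctgggacacaa
Gjb1 at the downstream start, chrX:101383717-101383746: tgactctctagcaCCGGgaggcgatgaatt
Gjb1 3′ untranslated exon, chrX:101385177-101385206: gtcaaagacctggCCGGctggggagtgggg
Gja1 intron, chr10:56383624-56383653: attcctgtgatctCCGGcagtggcaaggag
Gja1 intron, chr10:56383692-56383721: cacttcacaggtgCCGGagagctgctgtcc
Gjb6 intron, chr14:57132448-57132477: acattctctgagaCCGGaggcctggtcccc
Gjb6 intron, chr14:57132781-57132810: aaagggacttaatCCGGactctagtcactt

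In RNA, the oligodendrocyte connexins were abundant in both populations and the astrocyte connexins were lower, with Gjb6 the most different between aOPC and aOL. None of the 4 genes was called in limma, where a call needed p under 0.01 and a Benjamini-Hochberg adjusted p under 0.05, and 1 of them, Gjb6, had an unadjusted p under 0.05, as had 1346 genes above 0 and 1331 below (the latter 12% of all genes tested). Over all 11133 genes tested, 0.0808% were called (1 higher and 8 lower in aOL). Of the 4 genes, 3 had both aOL libraries below both aOPC libraries, as had 29.9% of all genes tested. In bulk samples, fewer cells of a type and less RNA per cell cannot be told apart.

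Gjb1, whose protein forms channels between the layers of myelin and towards astrocytes, had log2 levels of 15.31 and 15.55 in aOPC against 15.00 and 14.96 in aOL. The aOL libraries lay below the aOPC libraries by a small gap, and Gjb1 ranked above 97.8% of all genes in each of the 4. The difference was -0.45 ± 0.20 (SE, n = 2 and 2), with a 95% interval from -1.0 to 0.11 and a limma adjusted p of 0.264.

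Gjc3, whose protein lies mainly in the innermost myelin layer next to the axon, was at 15.89 and 15.65 in aOPC against 15.74 and 15.76 in aOL. The groups overlapped. The difference was -0.02 ± 0.20 (SE, n = 2 and 2), with a 95% interval from -0.58 to 0.53 and a limma adjusted p of 0.951, and it was 0.10 without aOPC replicate 2.

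Gja1, the main connexin gene of astrocytes, was at 10.76 and 10.41 in aOPC against 8.57 and 10.17 in aOL. The aOL libraries lay 1.60 apart, and the higher of them lay only 0.24 under the lower aOPC library. The difference of -1.21 ± 0.60 (SE, n = 2 and 2; 95% interval from -2.85 to 0.42) was not past the threshold (limma adjusted p = 0.290). It was -0.42 without aOL replicate 2 and -2.01 without aOL replicate 3, neither of them called.

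Gjb6, the other astrocyte connexin gene of the 4, was at 9.90 and 9.44 in aOPC against 7.13 and 6.44 in aOL. The groups were separated by 2.31 log2 units, which was larger than the gap within either group. The difference was -2.88 ± 0.34 (SE, n = 2 and 2; 95% interval from -3.82 to -1.95), a level 7.37-fold higher in aOPC. With an unadjusted p of 0.000915 and a limma adjusted p of 0.106, Gjb6 was not called. It was called when aOPC replicate 2 (-2.65, adjusted p = 0.0202), aOPC replicate 3 (-3.11, adjusted p = 0.0398) or aOL replicate 2 (-3.23, adjusted p = 0.0234) was left out, but not without aOL replicate 3 (-2.54, adjusted p = 0.0992). In such fits the lone library is assumed to vary like the other group. They called many more genes, 36.3% of all genes tested without aOPC replicate 2, 21.3% without aOPC replicate 3, 0.905% without aOL replicate 2 and 0.896% without aOL replicate 3, and calls in them are to be read against these shares.

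**Figure D1:**
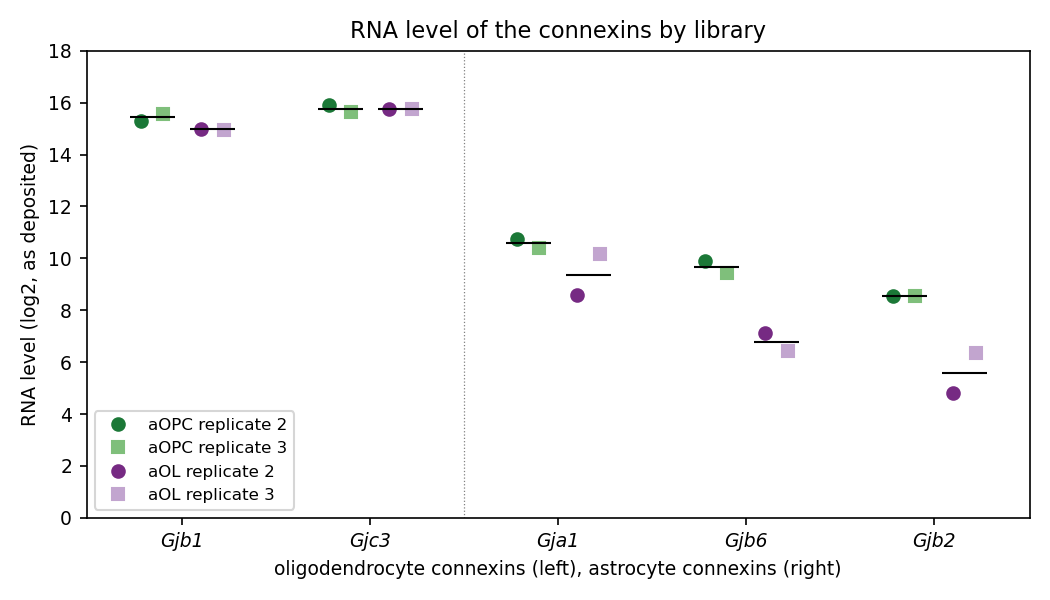
RNA level of 5 connexin genes (log2, as deposited) in each library, with the group mean as a line and n = 2 libraries per population. The oligodendrocyte connexins Gjb1 and Gjc3 sit between 14.96 and 15.89 in every library, and Gjb6 sits at 9.90 and 9.44 in aOPC against 7.13 and 6.44 in aOL.

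Levels were compared between the genes on a scale per kb, as the log2 level minus the log2 of the longest annotated transcript in kb. On that scale the order was Gjb1, Gjc3, Gja1 and Gjb6 in both populations. The means in aOPC were 14.76 ± 0.17 for Gjb1, 13.77 ± 0.17 for Gjc3, 8.91 ± 0.25 for Gja1 and 8.59 ± 0.32 for Gjb6 (SD, n = 2). In aOL the means on the same scale were 14.32 ± 0.03, 13.75 ± 0.01, 7.70 ± 1.13 and 5.71 ± 0.49 in that order (SD, n = 2). Gja1 and Gjb6 overlapped in aOPC (9.09 and 8.74 against 8.82 and 8.36) but not in aOL (6.90 and 8.50 against 6.06 and 5.36), and no other neighbours in the order overlapped. The first 2 places depend on the length used, since Gjc3 has a longest transcript of 4.002 kb against 1.58 kb for Gjb1, and without the length Gjc3 was the higher of them in every library.

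Outside these 4 genes, Gjb2, which is expressed in astrocytes and in the meninges, was at 8.53 and 8.56 in aOPC against 4.80 and 6.34 in aOL. Its difference was -2.98 ± 0.56 (SE, n = 2 and 2; limma adjusted p = 0.133), and it was called without aOL replicate 3 (-3.75, adjusted p = 0.00778), where 0.896% of all genes were. Gjb2 thus lay lower in both aOL libraries than in either aOPC library, as Gjb6 did. Of the pannexins, which form channels in a single membrane, only Panx1 was listed (7.60 and 4.01 in aOPC against 3.97 and 5.35 in aOL), and its groups overlapped.

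Marker genes of other cell types were read in the same libraries. Without their connexins, 8 astrocyte markers had a median difference of -0.42, with 6 below 0, 1 not overlapping and higher (31.9% of all genes tested) and 1 not overlapping and lower (29.9%). The highest among them were Slc1a3, a glutamate transporter gene (12.38 and 12.52 in aOPC against 12.91 and 12.97 in aOL), Aldoc, a glycolytic enzyme gene (11.86 and 10.99 in aOPC against 10.34 and 10.999 in aOL), and Gfap, the intermediate filament gene (10.06 and 9.59 in aOPC against 9.11 and 9.10 in aOL). The log2 of their summed level was 13.59 and 13.24 in aOPC against 13.40 and 13.52 in aOL, so that the groups overlapped in the sum.

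Of 9 genes of a pericyte and meningeal list 5 were in the RNA tables, and they were divided. Of the 5, 3 did not overlap and were lower in aOL (29.9% of all genes tested), 2 overlapped with a difference above 0, and the median was -3.27. Col1a1, a fibrillar collagen gene, was at 9.65 and 9.34 in aOPC against 6.21 and 2.83 in aOL. Col1a2, its partner chain, was at 10.06 and 9.59 in aOPC against 7.03 and 6.08 in aOL. Dcn, the gene of the matrix proteoglycan decorin, was at 8.34 and 9.97 in aOPC against 5.38 and 4.66 in aOL. The other 2, the mural cell genes Vtn (1.84) and Acta2 (1.30), had log2 differences above 0. The log2 of the list's summed level ran from 11.12 to 11.34 in aOPC and from 8.43 to 9.96 in aOL. The study's isolation used a Percoll gradient, meant to remove meninges and vessels, before the sort. The part of such cells in the levels of Gjb6, Gjb2 and Gja1 was not tested. Of 8 endothelial genes only 2 were listed, Cldn5 (difference 5.46) and Kdr (0.69), and both did not overlap and were higher in aOL (31.9% of all genes tested), with a smallest adjusted p of 0.108 in limma. Of 7 microglia markers 3 did not overlap and were lower, with a median of -0.54, and of 4 neuron markers tested 2 did not overlap and were lower, with a median of -0.57 (29.9% of all genes tested did not overlap and were lower). The median over all genes tested was 0.02, and no gene of these lists was called. Of these lists, only Col1a1, Col1a2 and Dcn were looked up in fits without a single library. Their differences stayed below 0, at -6.67 to -3.29 for Col1a1, -3.74 to -2.79 for Col1a2 and -4.95 to -3.32 for Dcn.

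**Figure D2:**
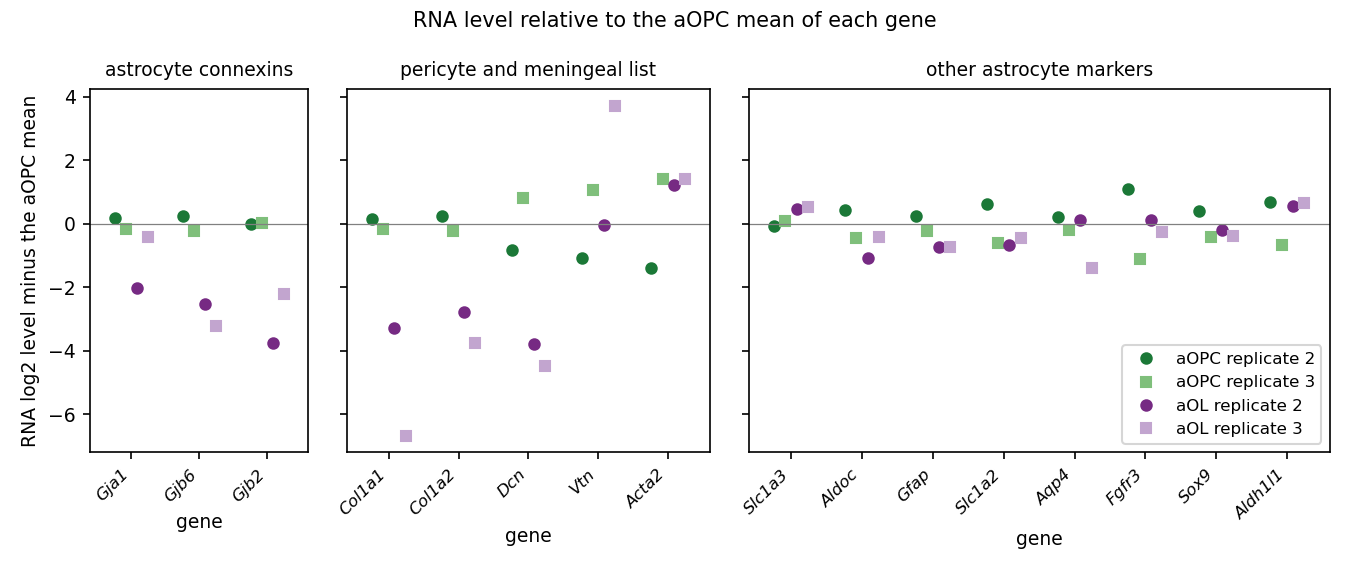
RNA log2 level of each library minus the mean of the 2 aOPC libraries of that gene, for the astrocyte connexins, for the 5 listed genes of the pericyte and meningeal list and for 8 other astrocyte markers. Gjb6, Gjb2, Col1a1, Col1a2 and Dcn lie over 2 log2 units below the aOPC mean in both aOL libraries. Gja1 does not, at -2.01 in aOL replicate 2 and -0.42 in aOL replicate 3. Vtn and Acta2 overlap between the groups.

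By the same 4 log2 values, each centred on its gene's mean, the genes with the smallest Euclidean distance from each connexin were looked up. For Gjb6 they were Prg4, a gene of a lubricating matrix protein (distance 0.0974), Mfap2, a microfibril gene (0.153), and Nrp1, a semaphorin and VEGF co-receptor gene (0.228), and only 7 genes lay within 0.5 of it. Prg4 was at 7.87 and 7.36 in aOPC against 4.98 and 4.32 in aOL. For Gja1 they were Prodh, the proline oxidase gene (0.259), Grb10, an insulin receptor adaptor gene (0.398), and Nnat (0.457), with 6 genes within 0.5. Gjb1 and Gjc3 had flatter patterns shared by many genes. Within 0.5 of Gjb1 lay 2959 genes, the nearest being 1110004E09Rik, Psmd14 and Set, and within 0.5 of Gjc3 lay 3068, the nearest being Upf3a, Mag and Map7d2. With 4 libraries this likeness is a description only.

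Genes whose proteins work with glial connexins were read in the same fit. Of 11 genes listed from a set of connexin scaffolds and partners, 8 had a difference above 0, 5 did not overlap and were higher in aOL (31.9% of all genes tested) and 2 did not overlap and were lower (29.9%), and none was called. Hepacam, a glial adhesion gene (15.13 and 15.18 in aOPC against 15.32 and 15.32 in aOL), and Ctnnb1, the beta-catenin gene (13.65 and 13.62 in aOPC against 14.08 and 14.02 in aOL), were among its 3 most abundant members. Tjp1, which encodes the scaffold that binds connexins at the plaque, was at 12.94 and 12.37 in aOPC against 13.77 and 13.68 in aOL (1.07 ± 0.27, SE, n = 2 and 2; limma adjusted p = 0.154), and it was called without aOPC replicate 2 (1.35, adjusted p = 0.0151) and without aOPC replicate 3 (0.79, adjusted p = 0.0420), in fits that called 36.3% and 21.3% of all genes. Nov, named after its values were seen, encodes a secreted matricellular protein that binds connexin proteins and was at 12.27 and 11.44 in aOPC against 7.97 and 7.47 in aOL (-4.13 ± 0.38, SE, n = 2 and 2; limma adjusted p = 0.0780).

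Among 7 genes of potassium and water handling in the glial network, 5 had a difference above 0 and 3 did not overlap and were higher in aOL (31.9% of all genes tested), with a median of 0.60. Kcnj10, the inward rectifier potassium channel gene of glia, was at 13.49 and 12.95 in aOPC against 16.23 and 16.03 in aOL (2.91 ± 0.27, SE, n = 2 and 2; limma adjusted p = 0.0780). Nov and Kcnj10 were called when either aOPC library or aOL replicate 3 was left out (adjusted p from 0.00967 to 0.0379, in fits that called 36.3%, 21.3% and 0.896% of all genes), and Nov also without aOL replicate 2 (adjusted p = 0.00432, with 0.905% called). Both were also called among genes at log2 8 or more (adjusted p = 0.0460 for each, with 0.382% called) and with a mean-variance trend (adjusted p = 0.0403 for Nov and 0.0344 for Kcnj10, with 0.207% called), but not in the other scalings or with no filter.

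In RRHP, none of the tested gene bodies, promoters or single sites of Gjb1, Gja1 and Gjb6 was called, and Gjc3 had too few counts for any test. Gene bodies were the exon and intron sites of a gene. Of the 4 genes 3 had enough counts for a test, none was called in edgeR or in DESeq2, and none had an unadjusted p under 0.05. Over all 18488 gene bodies tested, 0.849% were called in edgeR (30 higher and 127 lower in aOL).

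The body of Gjb1 held 27 sites with 107 and 171 counts in aOPC against 205 and 411 in aOL. Brought to the same library size (CPM), these were 15.0 (95% Wilson interval 12.4 to 18.2) and 9.99 (8.60 to 11.6) in aOPC, and 12.9 (11.2 to 14.8) and 15.2 (13.8 to 16.7) in aOL. The groups overlapped, with aOPC replicate 3 alone below the rest. The log2 difference was 0.20 ± 0.21 (SE, n = 2 and 2; edgeR adjusted p = 0.820). It was -0.081 without aOPC replicate 3 and 0.48 without aOPC replicate 2. Since Gjb1 is X-linked, its counts were also set against those of chromosome X, which took 2.45% to 3.13% of the counts, and relative to that chromosome they were 529 and 407 CPM in aOPC against 478 and 485 in aOL, still overlapping. Intervals and floors cover counting error only, as the reads carry no molecular identifiers.

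The body of Gja1 held 21 sites with 35 and 72 counts in aOPC against 65 and 131 in aOL, or 4.92 and 4.20 CPM in aOPC against 4.08 and 4.84 in aOL. The groups overlapped almost wholly. The log2 difference was -0.02 ± 0.33 (SE, n = 2 and 2; edgeR adjusted p = 0.986), and its sign turned without aOPC replicate 2 (0.077) or without aOL replicate 2 (0.093).

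The body of Gjb6 held 16 sites with 43 and 42 counts in aOPC against 48 and 100 in aOL. In CPM, aOPC replicate 2 stood above the rest at 6.05 (95% Wilson interval 4.49 to 8.14), with aOPC replicate 3 lowest at 2.45 (1.81 to 3.32) and aOL between at 3.01 (2.27 to 3.996) and 3.70 (3.04 to 4.49). Of these sites 13 lie in a CpG island, the class that took the larger share of counts in aOPC replicate 2. The log2 difference was -0.28 ± 0.46 (SE, n = 2 and 2; edgeR adjusted p = 0.886), and without aOPC replicate 2 it was 0.44.

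The body of Gjc3 held 2 sites with 1 and 2 counts in aOPC against 1 and 5 in aOL. This lies under the floor of 3 counts in 3 libraries and was too few for a test. A difference in hydroxymethylation at Gjc3 was not detectable at this depth.

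Per listed site, the bodies of Gja1 and Gjb6 ranked low among all gene bodies tested and that of Gjb1 below the middle. Gjb1 was between percentiles 29.2 and 46.1 of CPM per site over the 4 libraries, Gja1 between percentiles 7.92 and 14.9, and Gjb6 between percentiles 10.8 and 24.7. The oligodendrocyte gene Gjb1 was the highest of the 3 in every library, with 0.370 to 0.563 CPM per site, against 0.194 to 0.234 for Gja1 and 0.153 to 0.378 for Gjb6. The median gene body had between 0.592 and 0.612.

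**Figure D3:**
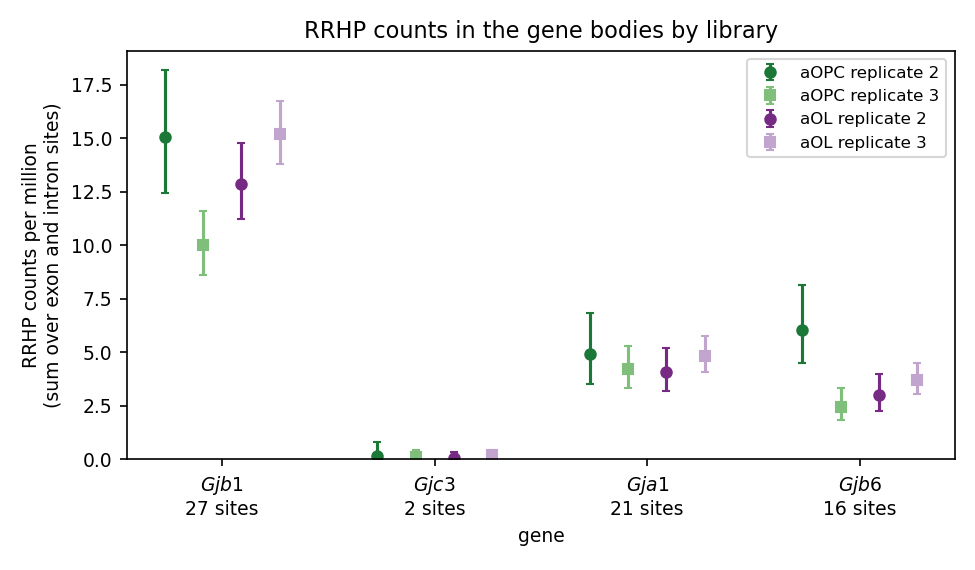
RRHP CPM summed over the exon and intron sites of each gene, per library, with 95% Wilson intervals. aOPC and aOL libraries overlap for every gene, and aOPC replicate 2 stands highest for Gjb6 at 6.05.

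In the promoter column of the deposited tables, 3 of the 4 genes were tested and none was called in edgeR or DESeq2, nor had any an unadjusted p under 0.05. Over all 14579 promoters tested 0.768% were called (61 higher and 51 lower in aOL, or 31 higher and 68 lower with library totals alone). The counts were 5 and 16 in aOPC against 20 and 23 in aOL for Gjb1 (2 sites), 10 and 10 in aOPC against 11 and 20 in aOL for Gja1 (3 sites), and 35 and 32 in aOPC against 38 and 77 in aOL for Gjb6 (15 sites). Gjc3 had 1 site, with 0 counts in 3 libraries and 1 count in aOL replicate 3. With 0 counts, the floor of 3 counts allows up to 0.422, 0.175 and 0.188 CPM in aOPC replicates 2 and 3 and aOL replicate 2.

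The log2 differences of the promoters were 0.62 ± 0.55 for Gjb1, 0.14 ± 0.55 for Gja1 and 0.27 ± 0.38 for Gjb6 (SE, n = 2 and 2; edgeR adjusted p = 0.998 for each). The Gjb1 value depended on single libraries, at 0.049 without aOPC replicate 2, 1.56 without aOPC replicate 3, 0.20 without aOL replicate 2 and 1.07 without aOL replicate 3, none of them called. Leaving out each library gave 0.049 to 0.27 for Gja1 and 0.13 to 0.42 for Gjb6. The direction depends on the scaling. TMM, edgeR's scaling by trimmed means, gave promoter counts of aOPC replicate 2 a factor of 1.75 against 0.757 to 0.936 in the other libraries, whereas for gene bodies the factors ran from 0.988 to 1.01. With library totals alone the median over all promoters moved from -0.01 to -0.60, and the differences were 0.32 for Gjb1, -0.39 for Gja1 and -0.34 for Gjb6. So 15 sites of Gjb6 gave 0.27 as a promoter and 16 sites, 15 of them the same, gave -0.28 as a gene body.

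Of the 67 sites, 11 had at least 10 reads in at least 2 libraries and were tested singly. None was called in edgeR or in DESeq2 and none had an unadjusted p under 0.05, against 2.29% called over all 443062 sites tested. The smallest adjusted p was 0.549. At 3 of the 11, all in Gjb1, only the aOL libraries reached 10 reads, so the filter itself favoured a higher level in aOL there, and no count of directions is given over the tested sites.

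These 3 sites lay near the downstream start and in the 3′ untranslated exon. At the downstream start, the cytosine on the minus strand at chrX:101383732 had 4 and 7 counts in aOPC against 20 and 25 in aOL (log2 difference 1.12 ± 0.55, SE, n = 2 and 2; edgeR adjusted p = 0.549). Its partner on the plus strand at chrX:101383731 had 9 and 11 counts in aOPC against 20 and 38 in aOL (0.52, adjusted p = 0.826) and overlapped. The plus-strand cytosine at chrX:101383587, 149 bp before that start, had 4 and 4 counts in aOPC against 12 and 21 in aOL (1.08, edgeR adjusted p = 0.656). In the 3′ untranslated exon, chrX:101385192 (minus strand) had 6 and 5 counts in aOPC against 18 and 31 in aOL (1.14, edgeR adjusted p = 0.591).

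The remaining tested sites of Gjb1 lay in the intron that follows its upstream starts. At chrX:101378893 (minus strand) the counts were 16 and 17 in aOPC against 11 and 25 in aOL, which scaled to library totals were lower in aOL (-0.96 ± 0.54, SE, n = 2 and 2; edgeR adjusted p = 0.629). At chrX:101378859 (minus strand), the most read site of the 67, they were 12 and 59 in aOPC against 44 and 82 in aOL, with a log2 difference of 0.01. At chrX:101377955 (minus strand) they were 2 and 11 in aOPC against 13 and 13 in aOL, with a log2 difference of 0.19.

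Outside Gjb1, the counts of tested sites overlapped throughout. In the intron of Gja1, chr10:56383638 (plus strand) had 5 and 11 counts in aOPC against 9 and 23 in aOL, and chr10:56383707 (minus strand) had 7 and 13 in aOPC against 9 and 21 in aOL. In the intron of Gjb6, chr14:57132462 (plus strand) had 8 and 10 counts in aOPC against 10 and 23 in aOL, and chr14:57132795 (plus strand) had 12 and 9 in aOPC against 12 and 16 in aOL. Their log2 differences ran from -0.64 to 0.06.

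Summed over the 6 sites within 200 bp of the downstream start, Gjb1 had 23 and 29 counts in aOPC against 66 and 122 in aOL, or 3.23 and 1.69 CPM in aOPC against 4.14 and 4.51 in aOL. The 6 sites of the upstream intron had 5.76 and 5.96 CPM in aOPC against 5.28 and 5.54 in aOL. Neither stretch overlapped between the groups, the downstream one higher in aOL and the upstream one lower. The share of all such stretches that do not overlap was not computed for RRHP. Sites of the coding exon overlapped, inside its CpG island and outside it, and the 4 sites of the 3′ untranslated exon had 1.27 and 0.53 CPM in aOPC against 1.44 and 1.66 in aOL. These stretches were set after the values were seen, so no test was made of them. The downstream start took 21.5% and 17.0% of the gene's counts in aOPC and 32.2% and 29.7% in aOL. None of its sites carries a promoter entry in the deposited tables, where the promoter column names only 2 sites of Gjb1, 647 and 682 bp after an upstream start.

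**Figure D4:**
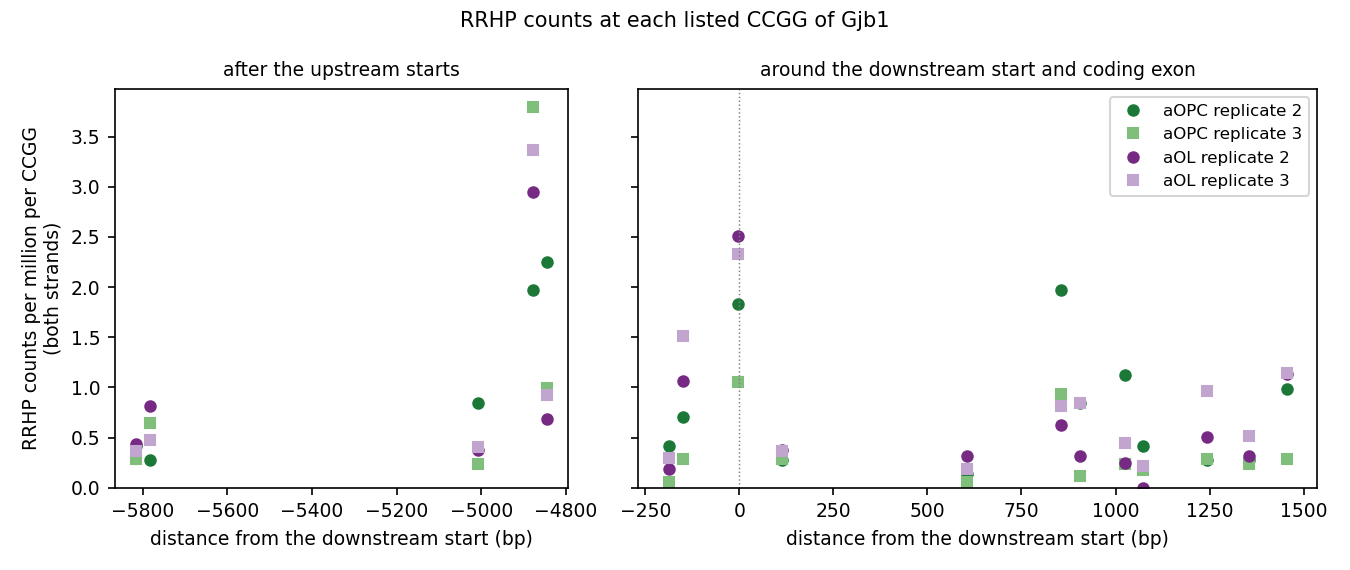
RRHP CPM at each of the 17 listed CCGG of Gjb1, both strands summed, by distance in bp from the downstream start (dotted line), one point per library. Within 200 bp of that start, a stretch set after the values were seen, the aOL libraries sum to 4.14 and 4.51. The aOPC libraries sum to 3.23 and 1.69 there, and no single site passed the test.

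The gene bodies of other connexins in the RRHP tables also showed no call. Of 20 connexin genes 16 had body sites and 15 were tested, 4 above 0 and 11 below, with a median log2 difference of -0.07 against -0.00 over all gene bodies. Gjd3 had the lowest difference, -0.89 (22 and 15 counts in aOPC against 18 and 24 in aOL). Its groups overlapped, at 3.09 and 0.876 CPM in aOPC against 1.13 and 0.887 in aOL, with aOPC replicate 2 alone above the rest and the other aOPC library the lowest. Gjb2 had 294 and 724 counts in aOPC against 737 and 1059 in aOL (0.02, edgeR adjusted p = 0.977). The 3 pannexin genes lay above 0, Panx1 at 0.43 (edgeR adjusted p = 0.619), Panx3 at 0.23 and Panx2 at 0.00.

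Of the connexin scaffolds and partners, 13 gene bodies were tested and 1 was called (0.849% of all gene bodies), that of Tjp1. Its 36 sites had 108 and 280 counts in aOPC against 103 and 204 in aOL, or 15.2 and 16.4 CPM in aOPC against 6.47 and 7.54 in aOL (-1.18 ± 0.19, SE, n = 2 and 2; edgeR adjusted p = 0.0169), while its RNA level was the higher in aOL. The call was lost without aOL replicate 2 (-1.07, adjusted p = 0.247), without aOL replicate 3 (-1.30, adjusted p = 0.0594) and with only sites of at least 3 reads in every library (-0.48, adjusted p = 0.746). Among the potassium and water genes, the body of Kcnj10 was at 110 and 98.2 CPM in aOPC against 70.6 and 64.3 in aOL (-0.63 ± 0.13, SE, n = 2 and 2; edgeR adjusted p = 0.0517), and it was not called. It was called without aOPC replicate 2 (3.29% of all gene bodies were), without aOPC replicate 3 (22.7%), in DESeq2 (adjusted p = 0.00196, with 1.09% called) and with no filter (adjusted p = 0.0349, with 1.02% called). It was further from the threshold without aOL replicate 2 (adjusted p = 0.512), without aOL replicate 3 (adjusted p = 0.920) and with only sites of at least 3 reads in every library (-0.37, adjusted p = 0.427).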

How the data were processed

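For RNA-seq, the authors aligned reads to mm10 with BWA and counted exon reads with featureCounts, and the deposited values are log2 levels per gene, whose quantiles are nearly equal (median 10.57 in each library). They carry no read counts; the mapped reads per library that the study lists were not used here, so no counting interval is given for RNA. The RRHP tables were deposited as raw counts per CpG site and strand; the aligner and any filter are not given in the sources used here. A site missing from a library was given 0. Of sites named in the promoter column for genes with a single start, 97.1% lie within 1000 bp of it. All 305256 sites on the chromosomes of these genes lie at a CCGG of GRCm38.

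RNA was tested with limma 3.58.1 on genes at log2 5 or more in at least 2 libraries. RRHP was tested with edgeR 4.0.16 (quasi-likelihood, TMM on library totals, filterByExpr for sums), at an adjusted p under 0.05, with DESeq2 1.42.0 as an alternative, in R 4.3.3. Both were also run on simulated data, where the planted changes were larger than any difference of the 4 genes. Those runs say nothing of smaller differences. Genes and lists were chosen with earlier results of these data known. Named were the 4 genes, other connexins and pannexins, the 3 most abundant and any called member of each list, the 3 nearest genes per connexin and all tested sites. Pdgfra and Ddx3y were named besides these. Some genes that this rule names are not reported here, but counts over the lists include them. Same-numbered libraries come from different reporter lines, so replicates were not paired.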

Additional observations from a re-analysis of the deposited data

How the results depend on the processing

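The RNA differences of Gjb1, Gja1 and Gjb6 kept their direction under every alternative run. Leaving out each library gave -0.57 to -0.33 for Gjb1, -0.14 to 0.10 for Gjc3, -2.01 to -0.42 for Gja1 and -3.23 to -2.54 for Gjb6. With the replicate number as a block, which shares only a number, Gjb6 was called (-2.88, adjusted p = 0.0261), and the block changed no other connexin's call. Among the few other genes looked up with this block, Nov, Kcnj10, Col1a2 and Dcn were called (limma adjusted p = 0.0138, 0.0261, 0.0201 and 0.0499), with 1.14% of all genes called. Genes called in RNA, higher and lower, were 1 and 8, against 0 and 0 with no filter, 11 and 25 at log2 8 or more, 8 and 15 with a mean-variance trend, 3 and 8 with quantile normalization repeated, 30 and 97 with the block, and 8 to 2026 and 91 to 1969 without one library. Gene body differences without one library ran from -0.081 to 0.48 for Gjb1, -0.16 to 0.093 for Gja1 and -0.82 to 0.44 for Gjb6. Promoter differences reversed with library totals alone (Gja1 -0.39, Gjb6 -0.34), with the gene body TMM factors, chosen after seeing the data (Gja1 -0.40, Gjb6 -0.35), and for Gjb6 with sites of at least 3 reads in every library (-0.32). Apart from scaling, the cause was not tested. No site of the 4 genes was called under any alternative.

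Same-numbered aOPC and aOL libraries did not deviate together (correlation -0.07 in RNA, -0.45 in gene bodies and -0.48 in promoters). Gene bodies called, higher and lower, were 30 and 127, against 46 and 163 with the block, 7 and 3 with sites of at least 3 reads in every library, 16 and 96 with at least 10 reads in every library, 233 and 375 without aOPC replicate 2, 1886 and 2319 without aOPC replicate 3, 13 and 76 without aOL replicate 2 and 13 and 71 without aOL replicate 3. Promoters were 61 and 51, against 38 and 43 with the block, 18 and 12 at 10 reads in every library and 1399 and 209 without aOPC replicate 3. Sites were 5382 and 4772, against 229 and 261 at 10 reads in every library and 523 and 2521 without aOPC replicate 3. The crossed pairing, chosen after seeing the data, gave 228 and 490 bodies, 249 and 88 promoters and 7694 and 6673 sites. Of the 67 sites, 56 had too few reads to test, and whether low depth or low hydroxymethylation lay behind this was not tested.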
